A study of Solanum lycopersicum and Solanum pennellii and Solanum pimpinellifolium with 52 samples.

Results

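Phenylalanine ammonia-lyase is the enzyme that removes ammonia from phenylalanine to give cinnamic acid, the entry step of the phenylpropanoid pathway. The gene models described here are those whose ID, read up to its dot, is on a list of 9 tomato IDs named as this enzyme's family. Of the 9 listed IDs, 5 had a row among the 28298 gene models of the expression table: Solyc09g007900.2.1, Solyc09g007890.1.1, Solyc10g086180.1.1, Solyc05g056170.2.1 and Solyc03g036470.1.1. The other 4 (Solyc09g007910, Solyc09g007920, Solyc03g042560 and Solyc03g036480) were not analysed here, so sums over the family are sums over 5 genes. The table carries IDs only, and the family name rests on that list.

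Cinnamic acid made by this enzyme feeds lignin, flavonoids and many soluble phenolics of plants. Roots and stems need it for lignin of water-conducting and supporting cells, and young tissue needs it for phenolic pigments and sunscreens. Plants usually carry several gene copies of the enzyme, often in clusters, and copies can differ in where and when they are used.

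The study measured transcripts of cultivated tomato and wild relatives by RNA-seq of 52 libraries. A seedling experiment held 28 libraries, 7 each from S. pennellii LA716, S. habrochaites LA1777, S. pimpinellifolium LA1589 (3 wild species) and S. lycopersicum LA3475 (cultivated tomato), all from plates under standard light. A factorial held 24 libraries of S. pennellii LA716 and S. lycopersicum LA3475: root, stem, inflorescence, vegetative meristem, leaf and seedling, each in simulated shade and simulated sun at 95 µE, with 1 library per combination. Shade and sun differed in red light over far-red light, which stood at 0.48 in shade and 3.1 in sun. No group carried a mutation or transgene in the labels, each species is represented by 1 accession, and the labels do not say whether libraries came from separate plants. The spread behind each p-value is thus that of libraries and may be technical. RNA was extracted with a Qiagen kit in the seedling experiment and with Trizol in the factorial, so light, extraction and experiment cannot be told apart between them.

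Values are RPKM, read counts scaled to the length of the gene model and the size of the library, and they can be compared between genes. In whole tissue, fewer cells of a type and less RNA per cell cannot be told apart. Since the table holds no gene names, the labelled tissues were not checked against marker genes. Library totals recovered from the RPKM steps ran from 1477052 to 5556059 reads, with a median of 2309105. A gene was called between groups at a Benjamini-Hochberg adjusted p under 0.05 and an absolute difference of at least 1 in log2(RPKM + 1), whereas an F test needed the adjusted p alone. All 5 genes passed the filter on low values in both experiments. The length implied by the RPKM steps was 2147 bases for Solyc09g007900, 2136 for Solyc10g086180, 2130 for Solyc05g056170, 1810 for Solyc09g007890 and 690 for Solyc03g036470. Solyc09g007900 and Solyc09g007890 carry consecutive IDs of chromosome 9, with Solyc09g007880.1.1 and Solyc09g007940.2.1 as the nearest rows around them. For assembly SLM_r2.1, RefSeq's gene table names 3 genes of the enzyme: PAL2 on chromosome 5, and PAL5 and PAL3 on chromosome 9 with 0 protein-coding genes between them. None of the IDs could be matched to that table, so these names are not tied to the rows described here.

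Solyc09g007900 had the highest RPKM of the 5 genes in 28 of 28 seedling libraries and in 24 of 24 factorial libraries. In the seedling experiment it made up 71.8% ± 3.31 of the summed RPKM in S. pennellii, 54.1% ± 4.06 in S. habrochaites, 59.5% ± 3.69 in S. pimpinellifolium and 67.3% ± 1.26 for S. lycopersicum (SD, n = 7 each). The second place went to Solyc10g086180 in 20 of the 28 seedling libraries and in 16 of the 24 factorial libraries. Solyc09g007890 took it in 8 and 7 of them. Solyc05g056170 came second in 1 factorial library. Solyc03g036470 was the lowest gene in 21 of 28 seedling libraries and in 24 of 24 factorial libraries. In the remaining 7 seedling libraries, which are those of S. habrochaites, Solyc05g056170 was lowest.

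**Figure D1:**
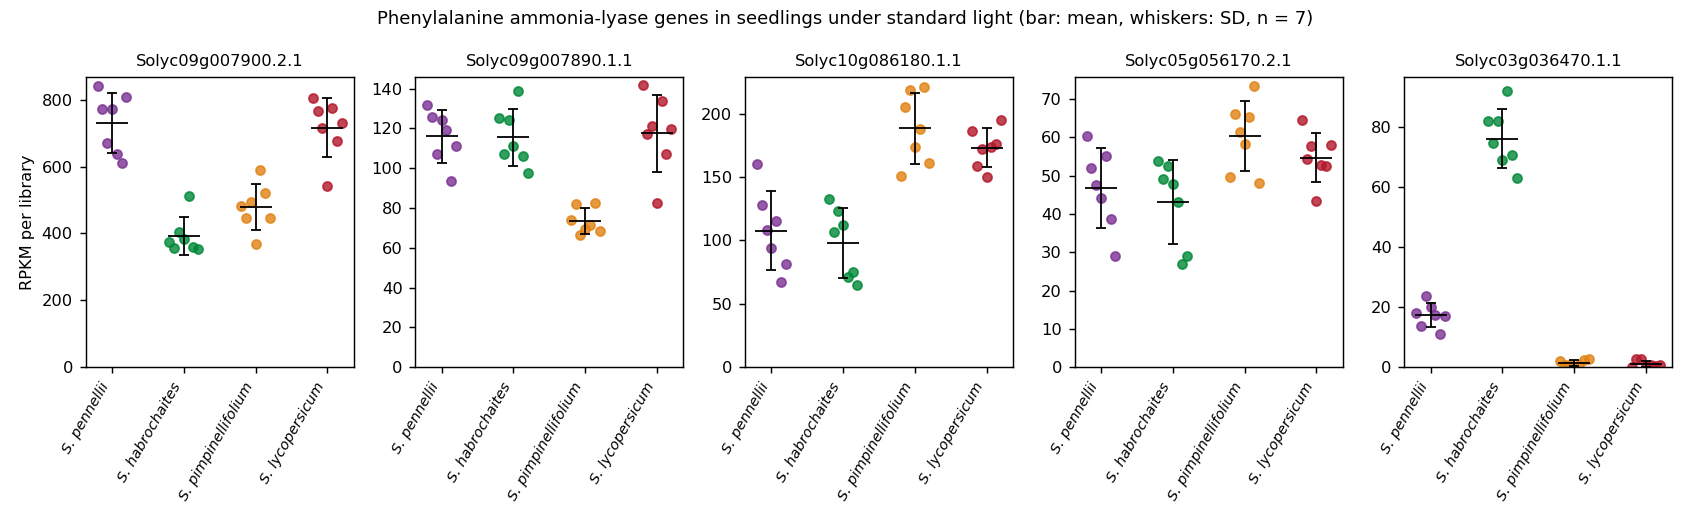
RPKM of each phenylalanine ammonia-lyase gene in the seedling experiment, with 1 point per library, a bar at the mean and whiskers for the SD (n = 7 per species); each panel has its own axis from 0. Solyc03g036470 lies between 62.8 and 91.9 RPKM in S. habrochaites and between 11.2 and 23.6 RPKM in S. pennellii, while S. pimpinellifolium and S. lycopersicum stay at or below 2.73 RPKM.

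Between the seedlings of the 4 species, the largest differences were those of Solyc03g036470, the short gene model. It had 17.9, 13.6, 23.6, 19.9, 17.5, 11.2 and 17.2 RPKM in the S. pennellii libraries and 81.9, 74.5, 82, 68.8, 91.9, 70.6 and 62.8 RPKM in the S. habrochaites libraries. The S. pimpinellifolium libraries had 2.05, 0.714, 0.832, 0, 0.840, 2.26 and 2.59 RPKM, and the S. lycopersicum libraries had 0, 2.63, 2.73, 0.57, 0.746, 0.413 and 0.581 RPKM. Every S. habrochaites library was above every S. pennellii library, and every S. pennellii library was above all libraries of S. pimpinellifolium and S. lycopersicum, which overlapped each other. The low values stand for few reads: the S. pennellii libraries held 172 reads in all, those of S. habrochaites 843, those of S. pimpinellifolium 15 and those of S. lycopersicum 11.

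In S. habrochaites, Solyc03g036470 had 69.4 times the mean of S. lycopersicum (76.1 ± 9.84 and 1.10 ± 1.11 RPKM, SD, n = 7 each). In S. pennellii (17.3 ± 4.02 RPKM) it had 15.8 times that mean. In limma the differences from S. lycopersicum were 5.35 ± 0.27 (SE, log2) for S. habrochaites, adjusted p = 1.8e-15, and 3.25 ± 0.27 for S. pennellii, adjusted p = 6.5e-11. Against S. pimpinellifolium (1.33 ± 0.966 RPKM) the gene was higher by 5.16 in S. habrochaites and by 3.06 in S. pennellii, with adjusted p-values of 4.9e-15 and 2.2e-10. S. pennellii was in turn below S. habrochaites by a log2 difference of -2.10 ± 0.27, adjusted p = 2.5e-07. The difference of S. pimpinellifolium from S. lycopersicum, 0.19 ± 0.27, did not pass the test, adjusted p = 0.73.

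Solyc03g036470 was the 1 gene of the 5 called in each pair of species other than S. pimpinellifolium and S. lycopersicum, and none of the 5 was called in that pair. Of all 19536 genes tested, 13.3% were called between S. habrochaites and S. lycopersicum, 18.7% between S. pennellii and S. lycopersicum, 10.9% between S. habrochaites and S. pimpinellifolium, 20.4% between S. pennellii and S. pimpinellifolium and 20.8% between S. pennellii and S. habrochaites. Between S. pimpinellifolium and S. lycopersicum the share was 4.65%, and 26.5% of genes had an unadjusted p under 0.05. A count of 1 in 5 members is thus close to these shares in most pairs. How well reads of each wild species align to the gene models, and whether near-identical copies share reads, was not tested.

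The run numbers in the labels split the seedling libraries into blocks of 14, 12 and 2 libraries, whose meaning is not stated. The difference of Solyc03g036470 between S. habrochaites and S. lycopersicum was 5.16 within block 1 and 5.47 within block 2, and that between S. pennellii and S. lycopersicum was 3.07 and 3.43, all 4 called. The smallest block held 2 S. habrochaites libraries and no other species, so it gave no value.

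The other 4 genes differed among seedlings of the species by less than the size limit of the call. In the F test over the 4 species all 5 genes differed, as did 65.8% of all genes tested. For Solyc05g056170 the adjusted p of 0.023 was lost with the run block as a covariate (0.064), within block 1 (0.23), within block 2 (0.15) and under median-ratio scaling (0.093). By adjusted p alone, 2 of the 5 genes differed between S. pennellii and S. habrochaites (47.8% of all genes), 5 between S. pennellii and S. pimpinellifolium (46.7%), 2 between S. pennellii and S. lycopersicum (42.6%), 5 between S. habrochaites and S. pimpinellifolium (27.8%), 3 between S. habrochaites and S. lycopersicum (34.3%) and 2 between S. pimpinellifolium and S. lycopersicum (14.8%).

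Solyc09g007900, the most abundant copy, had 842, 773, 669.9, 773, 636, 612 and 809 RPKM in S. pennellii and 374, 357, 404, 384, 513, 360.1 and 353 RPKM in S. habrochaites. It had 481, 447, 495, 367, 589.8, 522 and 447 RPKM in S. pimpinellifolium and 806, 766, 716, 542, 776, 676 and 729 RPKM in S. lycopersicum. All S. pennellii libraries were above all S. habrochaites and S. pimpinellifolium libraries, and S. pennellii and S. lycopersicum overlapped. By means S. pennellii (731 RPKM) was highest and S. habrochaites (392 RPKM) lowest, with S. pimpinellifolium (478 RPKM) and S. lycopersicum (716 RPKM) between them. The neighbours in that order, S. pennellii and S. lycopersicum differed by 0.03 ± 0.11 in log2, adjusted p = 0.85. S. habrochaites was below S. lycopersicum by -0.87 ± 0.11, adjusted p = 2.7e-07, and S. pimpinellifolium was below S. lycopersicum by -0.58 ± 0.11, adjusted p = 0.00027. Within run block 1 the difference of S. pimpinellifolium from S. lycopersicum was -0.37 and did not pass (adjusted p = 0.086), and within block 2 it was -0.80 (adjusted p = 0.00095). The median of all genes tested was -0.14 between S. habrochaites and S. lycopersicum.

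Solyc09g007890, the next ID on chromosome 9, stood apart in another species. It had 74.1, 82, 66.3, 69.3, 71.4, 82.4 and 68.5 RPKM in S. pimpinellifolium, with a mean of 73.4 ± 6.44 (SD, n = 7). The means were 116 ± 13.1 RPKM in S. pennellii, 116 ± 14.3 in S. habrochaites and 117 ± 19.2 in S. lycopersicum. All S. pimpinellifolium libraries were below all S. pennellii and S. habrochaites libraries, while the lowest S. lycopersicum library, at 82.3 RPKM, fell within the S. pimpinellifolium range. The log2 difference of S. pimpinellifolium from S. lycopersicum was -0.66 ± 0.11, adjusted p = 4.5e-05. Within run block 1 it was -0.44 and did not pass (adjusted p = 0.058), and within block 2 it was -0.82 (adjusted p = 0.0014). S. pennellii and S. habrochaites each differed from S. lycopersicum by -0.01.

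Solyc10g086180 split the species into 2 pairs. It averaged 108 ± 30.9 RPKM in S. pennellii and 98.1 ± 27.4 in S. habrochaites, against 188 ± 27.8 in S. pimpinellifolium and 173 ± 15.4 for S. lycopersicum (SD, n = 7 each). The S. habrochaites libraries, at 64.7 to 133 RPKM, were all below the S. lycopersicum libraries, at 149.7 to 195 RPKM, while S. pennellii, at 67.5 to 160.3 RPKM, overlapped them. The differences from S. lycopersicum were -0.73 ± 0.17 for S. pennellii, adjusted p = 0.0007, and -0.86 ± 0.17 for S. habrochaites, adjusted p = 0.00016. That of S. habrochaites was -0.73 within run block 1 (adjusted p = 0.04) and -0.60 within block 2, where it did not pass (adjusted p = 0.063). S. habrochaites against S. pimpinellifolium was just under the size limit at -0.97, adjusted p = 4.4e-05 (-0.73 and 0.053 within run block 2), and was called when any of 6 libraries was left out (S. pimpinellifolium replicates 8 and 14, S. habrochaites replicates 15 to 18, with values of -1.0 to -1.05).

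Solyc05g056170 had the smallest differences. Its means were 46.8 ± 10.5 RPKM in S. pennellii, 43.2 ± 10.9 in S. habrochaites, 60.3 ± 9.07 in S. pimpinellifolium and 54.7 ± 6.48 in S. lycopersicum, and the libraries of all species overlapped. Neither S. pennellii (-0.25 ± 0.16, adjusted p = 0.22) nor S. habrochaites (-0.37 ± 0.16, adjusted p = 0.07) passed the test against S. lycopersicum.

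The summed RPKM of the 5 genes was 1019 ± 125 in S. pennellii, 725 ± 86.9 in S. habrochaites, 802 ± 90.9 in S. pimpinellifolium and 1062 ± 122 in S. lycopersicum. Solyc03g036470 held 1.71% ± 0.412 of the total in S. pennellii, 10.5% ± 0.498 in S. habrochaites, 0.165% ± 0.128 in S. pimpinellifolium and 0.103% ± 0.101 in S. lycopersicum. Solyc10g086180 held 10.5% ± 2.14 in S. pennellii, 13.5% ± 3.31 in S. habrochaites, 23.5% ± 2.63 in S. pimpinellifolium and 16.4% ± 1.41 in S. lycopersicum. These shares weight genes by RPKM, so a short gene model counts for more than its reads.

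**Figure D2:**
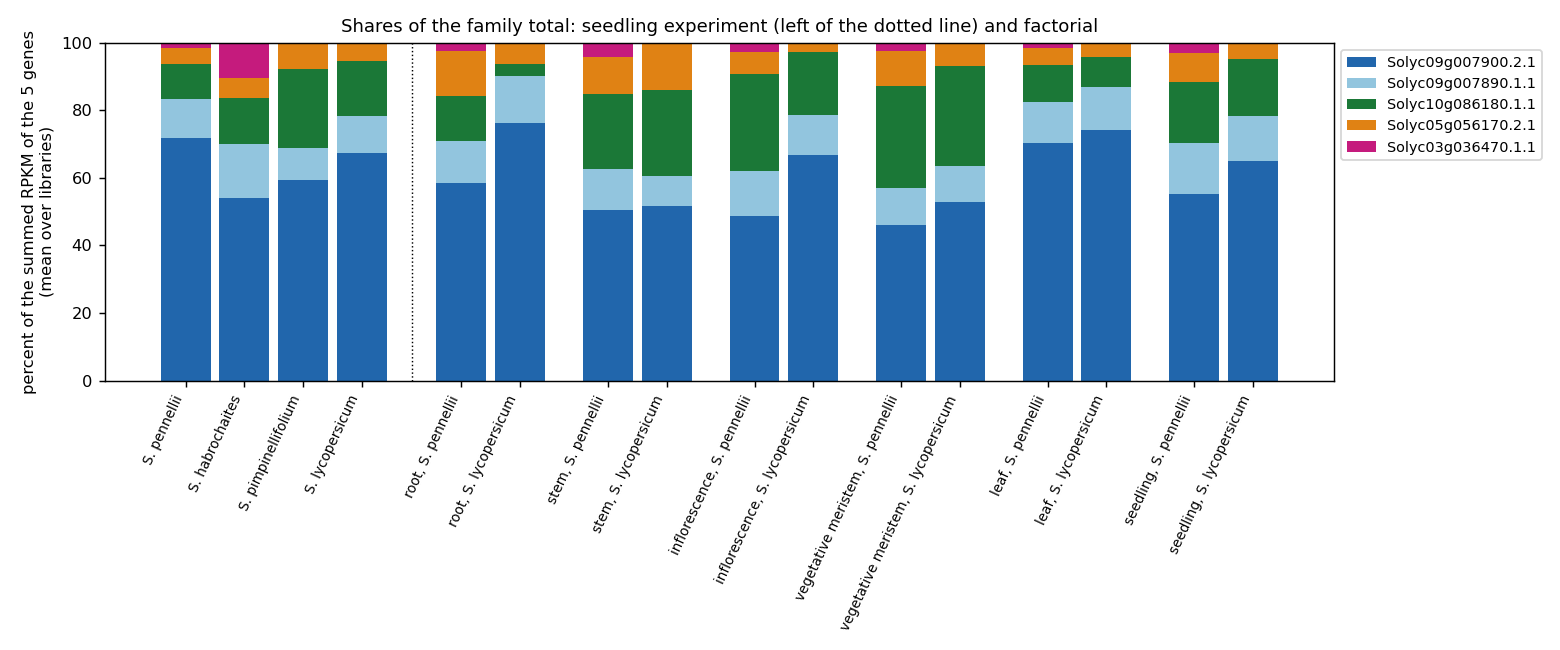
Percent of the summed RPKM of the 5 genes held by each gene, as means over libraries: n = 7 per species in the seedling experiment (left of the dotted line) and n = 2 per species and tissue in the factorial. Solyc09g007900 holds the largest part of every bar, and Solyc03g036470 reaches 10.5% in S. habrochaites seedlings.

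The level of Solyc09g007890 relative to Solyc09g007900, its neighbour by ID, set S. habrochaites apart. Solyc09g007890 amounted to 29.6% ± 2.10 of Solyc09g007900 in S. habrochaites, with libraries from 27.1% to 33.3%. It amounted to 15.9% ± 1.48 in S. pennellii, 15.6% ± 2.44 in S. pimpinellifolium and 16.3% ± 0.953 for S. lycopersicum (SD, n = 7 each), and the highest of these 21 libraries was at 18.9%. This ratio was chosen after the values were seen, and 6 pairs of species were compared with a two-sided exact permutation test of the log2 ratio. S. habrochaites exceeded S. lycopersicum by 0.86 ± 0.05 (SE) and S. pimpinellifolium by 0.93 ± 0.09, and S. pennellii differed from S. habrochaites by -0.89 ± 0.06. Each of these had an exact p of 0.00058, the smallest that 7 against 7 libraries can give, and an adjusted p of 0.0012. The other 3 pairs had adjusted permutation p-values of 0.63 to 0.67, with differences of -0.08 to 0.04. The adjustment covers the 6 pairs of species and not the choice of the ratio. Since that choice came after these values were seen, the p-values describe the separation and are no independent test of it.

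In the factorial the same ratio was 23.6% ± 4.30 in S. pennellii and 18.3% ± 2.37 in S. lycopersicum (SD, n = 12 libraries over tissues and light). The 2 species overlapped there, at 16.9% to 32.1% in S. pennellii and at 14.7% to 22.5% in S. lycopersicum. By tissue, the S. pennellii ratio lay between 17% in leaf and 27.7% in seedling, and that of S. lycopersicum between 16.9% in stem and 20.2% in seedling (means of 2 libraries). These factorial ratios were not tested.

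**Figure D3:**
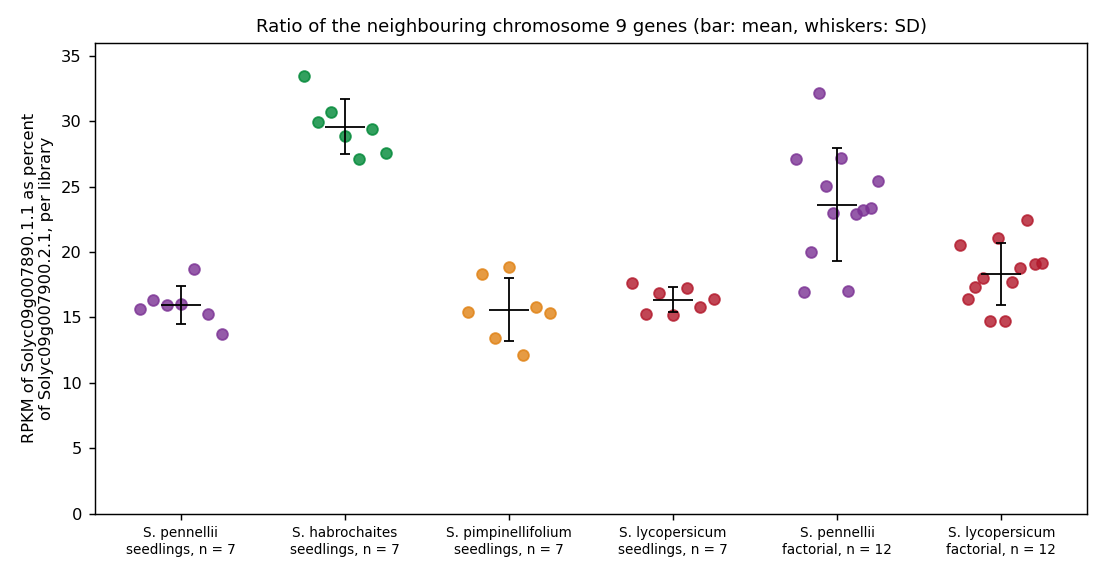
RPKM of Solyc09g007890 as a percent of that of Solyc09g007900, with 1 point per library, a bar at the mean and whiskers for the SD. The 7 S. habrochaites libraries lie at 27.1% to 33.3%, above all other seedling libraries, which reach 18.9% at most.

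Over the 6 tissues of the factorial, the 2 chromosome 9 genes were lower and Solyc03g036470 was higher in S. pennellii relative to S. lycopersicum. These 3 of the 5 genes were called for the species difference averaged over tissues (1 higher, 2 lower), as were 10.6% of the 22512 genes tested (3.98% higher, 6.61% lower). Solyc09g007900 averaged 404 RPKM in S. pennellii and 1402 RPKM in S. lycopersicum, a log2 difference of -1.63 ± 0.17 (SE), adjusted p = 3.9e-06. Solyc09g007890 averaged 95.5 RPKM in S. pennellii and 256 RPKM in S. lycopersicum, a difference of -1.27 ± 0.19, adjusted p = 0.00013. Solyc03g036470 averaged 20 RPKM in S. pennellii and 1.22 RPKM in S. lycopersicum, a difference of 3.06 ± 0.29, adjusted p = 1.2e-06. These 3 calls held whichever of the 24 libraries was left out.

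The other 2 genes were lower in S. pennellii by less than the size limit. Solyc10g086180 averaged 139 RPKM in S. pennellii and 287 RPKM in S. lycopersicum, a difference of -0.94 ± 0.15, adjusted p = 0.00022. It passed the size limit when the S. pennellii seedling library in shade, the S. lycopersicum root library in shade or the S. lycopersicum stem library in sun was left out. Solyc05g056170 averaged 75.8 RPKM in S. pennellii and 144 RPKM in S. lycopersicum, a difference of -0.75 ± 0.13, adjusted p = 0.00041. By adjusted p alone 37% of all genes differed, and the median over all genes tested was -0.10.

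**Figure D4:**
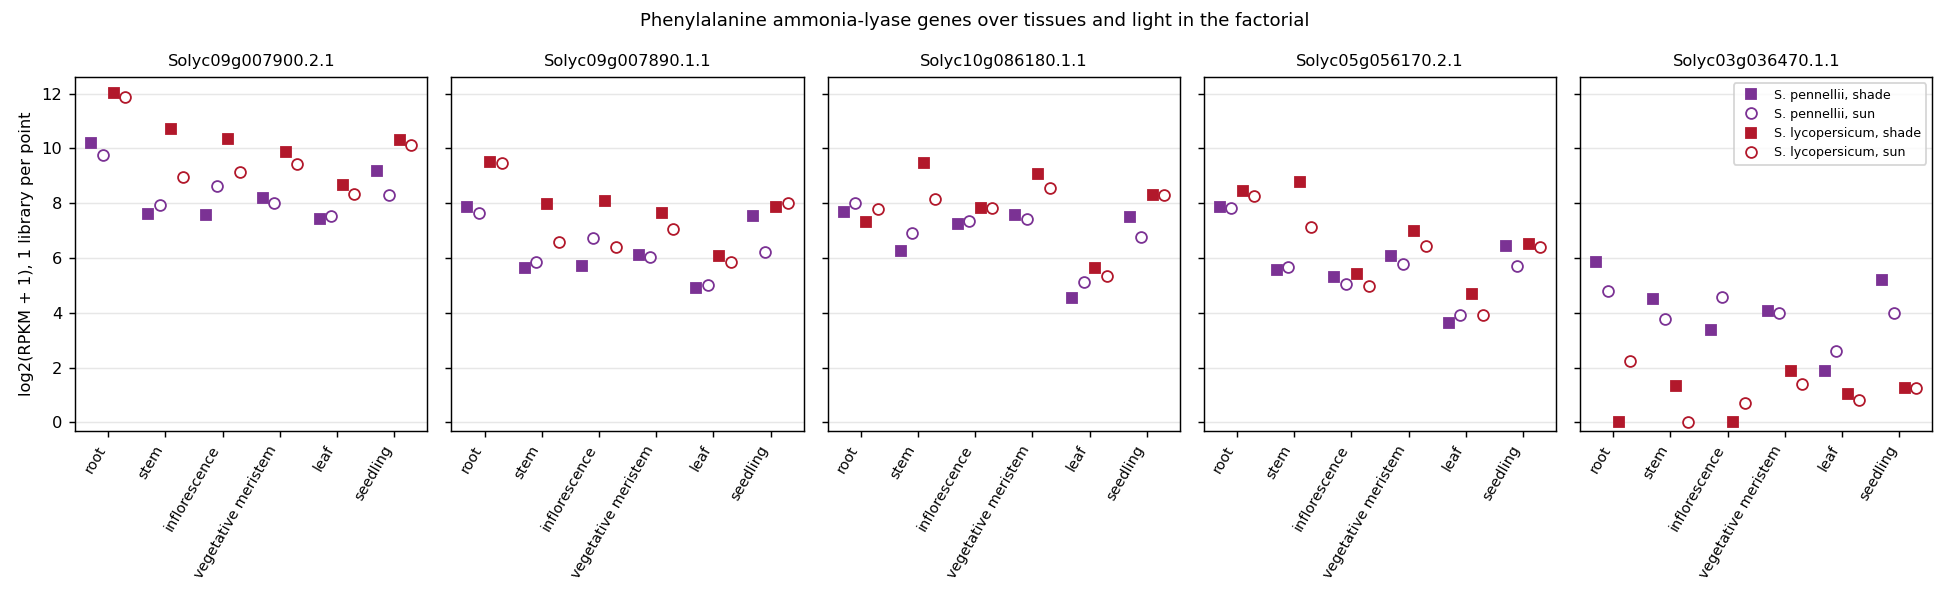
Log2(RPKM + 1) of each gene in the 24 factorial libraries, 1 point per library, with squares for shade and circles for sun and S. pennellii left of S. lycopersicum in each tissue. Solyc09g007900 and Solyc09g007890 lie highest in root in S. lycopersicum, and Solyc03g036470 lies above S. lycopersicum in every tissue of S. pennellii.

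The species difference of Solyc09g007900 was called in 5 of the 6 tissues. In roots it had 1166 RPKM in shade and 865 RPKM in sun in S. pennellii, against 4203 RPKM in shade and 3799.7 RPKM in sun in S. lycopersicum, a difference of -1.99 ± 0.42, adjusted p = 0.0057. In stems it had 193 and 245 RPKM in S. pennellii, against 1681 and 501 RPKM in S. lycopersicum (shade, then sun), a difference of -2.07, adjusted p = 0.0046. The S. lycopersicum values were above the S. pennellii values in every tissue. The difference was -1.66 in inflorescence (adjusted p = 0.023), -1.56 in vegetative meristem (0.042) and -1.48 in seedling (0.034), and in leaf it was -1.02 and did not pass the test (0.15).

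These calls per tissue rest on 2 libraries per species. That in root was lost without the S. pennellii sun library (adjusted p = 0.082) or the S. lycopersicum sun library (0.06). That in stem was lost without the S. pennellii shade library (adjusted p = 0.063) or the S. lycopersicum shade library, where the difference was -1.43 (adjusted p = 0.11). Without the S. lycopersicum sun library the stem difference was -2.71. Those in inflorescence, vegetative meristem and seedling were lost when any of 3, 11 and 3 libraries was left out, in that order. Each of these 3 calls was also lost under median-ratio scaling. Under quantile normalization those in vegetative meristem (adjusted p = 0.071) and seedling (0.077) were lost. Without a filter on low values that in vegetative meristem was lost (0.05). In the fits with a library left out, the lone library of a group is assumed to vary like the other groups.

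Solyc09g007890 had the same direction at lower levels. In roots it had 233 and 198 RPKM in S. pennellii, against 729 and 715 RPKM in S. lycopersicum (shade, then sun), a difference of -1.74 ± 0.47, adjusted p = 0.026. In stems it had 48.3 and 57.3 RPKM in S. pennellii, against 247 and 95.5 RPKM in S. lycopersicum, a difference of -1.53, adjusted p = 0.045. The stem call was lost with a pseudocount of 0.1 (adjusted p = 0.05), without a filter on low values (0.056) and under median-ratio scaling (0.086). Both calls were lost when 1 of several libraries was left out, with adjusted p of up to 0.17 in root without the S. lycopersicum sun library and up to 0.38 in stem without the S. lycopersicum shade library. In the other 4 tissues the differences of -1.0 to -1.28 did not pass the test.

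Solyc03g036470 went the other way. In roots it had 57.2 and 26.4 RPKM in S. pennellii, against 0 and 3.68 RPKM in S. lycopersicum (shade, then sun), a difference of 4.21 ± 0.70, adjusted p = 0.0011. It was also called higher in S. pennellii in stem (3.47, adjusted p = 0.0045), inflorescence (3.62, 0.0046) and seedling (3.36, 0.0066). In vegetative meristem it had 15.7 and 14.9 RPKM in S. pennellii, against 2.70 and 1.62 RPKM in S. lycopersicum, a difference of 2.39 that missed the threshold at an adjusted p of 0.062. It was called under median-ratio scaling (0.048), under quantile normalization (0.036) and when any of 4 libraries was left out (the S. lycopersicum roots and stems). In leaf, where S. pennellii itself had 2.69 and 5.05 RPKM and S. lycopersicum 1.06 and 0.768 RPKM, the difference was 1.31, adjusted p = 0.29.

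The 12 S. lycopersicum libraries together held 33 reads of Solyc03g036470 and 3 of them held none, against 466 reads in the 12 S. pennellii libraries. The size of the difference per tissue moved with single libraries. In root it was 2.96 without the S. lycopersicum shade library and 5.45 without the sun library, called in both. In stem it was 2.59 (adjusted p = 0.058) without the S. lycopersicum sun library and 4.35 without the shade library, and the call was also lost without the S. pennellii shade library (adjusted p = 0.06). In inflorescence it was 2.77 (adjusted p = 0.096) without the S. pennellii sun library and 4.48 without the shade library. In seedling it was 2.75 (adjusted p = 0.097) without the S. pennellii shade library, and the call was lost without either S. lycopersicum library as well (0.053 without shade, 0.05 without sun) and with a pseudocount of 0.1 (adjusted p = 0.1).

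Stem was the tissue in which all 5 genes were called between the species, 4 lower and 1 higher in S. pennellii, while 12.1% of all genes were called there (7.13% lower, 4.98% higher). The count of 5 includes Solyc09g007890, whose stem call did not hold in 3 of the alternatives above. It also includes Solyc09g007900 and Solyc03g036470. The stem calls of these 3 genes were each lost when single stem libraries were left out, as given above. The share of all genes was 11.1% in root (3 members called), 8.65% in inflorescence (2), 5.68% in vegetative meristem (1), 9.52% in leaf (0) and 10.7% in seedling (2). In leaf 23.1% of all genes had an unadjusted p under 0.05, and 1 member, Solyc09g007900, was among them.

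Solyc05g056170 and Solyc10g086180 were called between species in stem. For Solyc10g086180 the differences in vegetative meristem (-1.31, adjusted p = 0.051) and seedling (-1.16, adjusted p = 0.056) missed the threshold, but were called with limma voom (0.015 in vegetative meristem and 0.034 in seedling) and when any of 6 libraries (vegetative meristem) or 5 libraries (seedling) was left out. Solyc05g056170 had 46.0 and 49.7 RPKM in S. pennellii stems, against 437 and 140.2 RPKM in S. lycopersicum stems (shade, then sun), a difference of -2.35 ± 0.32, adjusted p = 0.00026. Solyc10g086180 had 75.5 and 118 RPKM in S. pennellii stems, against 709 and 286 RPKM in S. lycopersicum stems, a difference of -2.24 ± 0.37, adjusted p = 0.0011. In both genes the S. lycopersicum shade stem was the highest library, and its removal left differences of -1.74 and -1.62 that were still called. Without the S. lycopersicum sun stem they were -2.96 and -2.87.

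**Figure D5:**
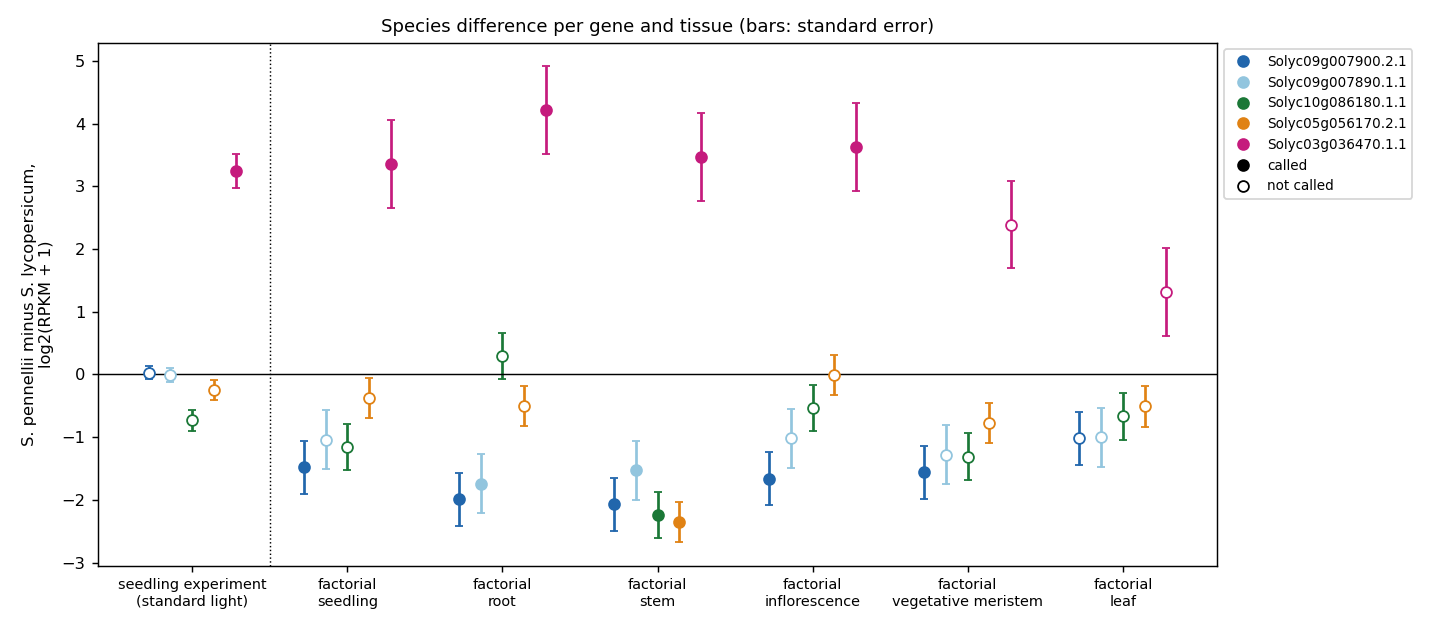
Difference of S. pennellii minus S. lycopersicum in log2(RPKM + 1) for each gene, with bars for the SE: the seedling experiment (7 libraries per species) left of the dotted line and each tissue of the factorial (2 libraries per species) to its right. Filled points were called; Solyc09g007900 is at 0.03 in the seedling experiment and at -1.48 in factorial seedlings.

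Seedlings of both species appear in both experiments, and there the chromosome 9 genes did not give the same picture. For Solyc09g007900 the difference of S. pennellii from S. lycopersicum was 0.03 ± 0.11 under standard light, and -1.48 ± 0.42 in the factorial, where S. pennellii had 579 and 317 RPKM and S. lycopersicum 1278 and 1127 RPKM (shade, then sun). Without the S. pennellii sun seedling library the factorial value was -0.97, adjusted p = 0.3. For Solyc09g007890 the difference was -0.01 ± 0.11 in the seedling experiment and -1.04 ± 0.47 in the factorial. Solyc03g036470 gave 3.25 in the seedling experiment and 3.36 in the factorial. The differences between the experiments were not tested.

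Among tissues, 4 of the 5 genes differed in the F test over tissues averaged over species, as did 77.3% of all genes. Solyc03g036470 did not (adjusted p = 0.068). The gene passed when the S. pennellii sun inflorescence, the S. lycopersicum shade root or either S. lycopersicum stem library was left out. It differed among tissues within S. pennellii (adjusted p = 0.026), as did all 5 genes and 60.5% of all genes tested. In S. lycopersicum, where it stayed at or below 3.68 RPKM, it did not pass (adjusted p = 0.6), while the other 4 genes and 66% of all genes did.

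For the mean of both species, root was the tissue of highest expression for 3 genes: Solyc09g007900, Solyc09g007890 and Solyc05g056170. This means a call against each of the other 5 tissues, which 7.98% of all genes met. Within S. pennellii alone, Solyc09g007900 and Solyc05g056170 met it, but Solyc09g007890 did not. Within S. lycopersicum alone, Solyc09g007900 and Solyc09g007890 met it, but Solyc05g056170 did not. Shares of all genes that met this rule within a single species are not given here, so these lists have no background beside them. Averaged over both species, Solyc09g007900 had 2509 RPKM in root, 826 in seedling, 655 in stem, 613 in inflorescence, 544 in vegetative meristem and 270.1 in leaf. The steps from seedling to vegetative meristem in that order were not separated by a call. Its differences of root from the other tissues ran from 1.48 ± 0.30 over seedling, adjusted p = 0.00092, to 2.98 ± 0.30 over leaf, adjusted p = 7.1e-07. Between root and leaf 43.8% of the 22512 genes tested were called, 7125 of them higher in root and 2726 lower. All 5 members were called higher in root than in leaf. Of these calls, that of Solyc03g036470 (1.63 ± 0.50, adjusted p = 0.011) was lost with a pseudocount of 0.1 (adjusted p = 0.29), under median-ratio scaling (0.071) and quantile normalization (0.075), and without the S. pennellii shade leaf, the S. pennellii shade root or the S. lycopersicum sun root library (0.057 to 0.084). The median over all genes tested was 0.55.

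Solyc05g056170 had the steepest profile. It had 234 and 225 RPKM in S. pennellii roots and 11.5 and 14.3 RPKM in S. pennellii leaves, and 346 and 304 RPKM in S. lycopersicum roots and 24.6 and 14.2 RPKM in S. lycopersicum leaves (shade, then sun). Root exceeded leaf by 4.05 ± 0.23, adjusted p = 1.7e-09. Inflorescence was the next lowest tissue, at 35.9 RPKM over both species, 1.15 above leaf. For Solyc09g007890 root exceeded leaf by 3.17 ± 0.33 and seedling by 1.22 ± 0.33. The step over seedling was not called without the S. pennellii sun seedling or the S. lycopersicum shade seedling library (0.84 and 1.0), nor under median-ratio scaling (0.93).

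For the mean of both species, leaf was the tissue of lowest expression for 3 genes, Solyc05g056170, Solyc09g007890 and Solyc10g086180, against 3.51% of all genes. Under median-ratio scaling Solyc10g086180 alone met this, since the excess of inflorescence over leaf became 0.46 (adjusted p = 0.12) for Solyc05g056170 and 0.56 (adjusted p = 0.24) for Solyc09g007890. Quantile normalization gave the same loss, with 0.60 (adjusted p = 0.077) for Solyc05g056170 and 0.87 (adjusted p = 0.062) for Solyc09g007890. The median of all genes for inflorescence over leaf was 0.43 as deposited, -0.00 under median-ratio scaling and 0.02 under quantile normalization. For Solyc09g007900, leaf was below root and seedling, but its differences from the other 3 tissues were under the size limit (0.82 to 0.93). Within S. pennellii alone, Solyc05g056170 and Solyc10g086180 were called lowest in leaf, and within S. lycopersicum alone only Solyc10g086180 was. The share of all genes called lowest in leaf within a single species is not given here. Solyc09g007890 was not so called in either species alone. For the mean of both species, its excess of stem over leaf (1.05) was 0.82 without the S. lycopersicum shade stem library. That of inflorescence over leaf (1.27) was 0.94 without the S. pennellii sun inflorescence library.

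Solyc10g086180 and Solyc03g036470 were not called highest in root. Averaged over both species Solyc10g086180 had 316 RPKM in vegetative meristem, 297 in stem, 229 in seedling, 208 in root, 191 in inflorescence and 36.2 in leaf. Leaf was below each of the other tissues by 2.40 to 2.99, while root was within 0.46 of each of the 4 tissues other than leaf, none called. In S. pennellii alone root had its highest mean, at 228 RPKM, with 179.7 RPKM in vegetative meristem next. Between root and stem the directions within the species were opposite, and this step was not tested between them on its own. Root exceeded stem in S. pennellii (202 and 254 RPKM in root against 75.5 and 118 RPKM in stem) by 1.25 ± 0.37, adjusted p = 0.02, where 24% of all genes were called between these tissues. Root was below stem in S. lycopersicum (157 and 219 RPKM in root against 709 and 286 RPKM in stem), with a difference of -1.28 ± 0.37, adjusted p = 0.02, and 22.1% of all genes called. The S. lycopersicum shade stem had 2.48 times the RPKM of the sun stem, so the size of this difference leans on 1 library. Values of these 2 steps with a library left out are not given here.

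The test of whether tissue profiles differed between the species passed for 1 of the 5 genes, Solyc05g056170 (adjusted p = 0.035), and for 8.46% of all genes. Solyc10g086180 missed it at an adjusted p of 0.058, and passed with limma voom on the recovered reads (0.027). The result of Solyc05g056170 was lost without any of 13 libraries, the S. pennellii and S. lycopersicum shade stems giving the highest adjusted p (0.15 and 0.14). The other 3 genes had adjusted p-values of 0.3 (Solyc03g036470), 0.7 (Solyc09g007900) and 0.88 (Solyc09g007890).

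In share of the family total, Solyc09g007900 ranged over the tissues from 46.0% in vegetative meristem to 70.4% in leaf in S. pennellii and from 51.8% in stem to 76.3% in root in S. lycopersicum (means of 2 libraries). Solyc10g086180 held 13.4% in S. pennellii root and 3.62% in S. lycopersicum root. In vegetative meristem it held 30.2% in S. pennellii and 29.4% in S. lycopersicum, next to 11% in S. pennellii leaf and 9.08% in S. lycopersicum leaf. The summed RPKM of the 5 genes was 1731 in S. pennellii root and 5238 in S. lycopersicum root, and 252 in S. pennellii leaf and 489 in S. lycopersicum leaf.

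None of the 5 genes was called between shade and sun. Over all 22512 genes, 2 (0.00888%) were called in S. pennellii and 0 (0%) in S. lycopersicum, 0 (0%) on average over the species and 0 (0%) for the difference of response between them. By unadjusted p under 0.05, 6.21% of all genes passed in S. pennellii and 5.5% in S. lycopersicum; 3 of the 5 members passed in S. lycopersicum. With 1 library per combination, each species had 1 light term in the model for all its tissues.

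In S. lycopersicum, Solyc09g007900 had more RPKM in shade than in sun in 6 of 6 tissues, by 0.67 ± 0.24 in log2 (unadjusted p = 0.014, adjusted p = 0.86 in limma). Solyc05g056170 was higher in shade in 6 of 6 tissues, by 0.62 ± 0.19 (unadjusted p = 0.0047, adjusted p = 0.86), and Solyc09g007890 in 5 of 6, by 0.62 ± 0.27 (0.039 and 0.89). Solyc10g086180 was higher in shade in 4 of 6 and Solyc03g036470 in 3 of 6 tissues. None of these differences passed the test over all genes.

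The stem pair of S. lycopersicum held the widest gaps in 3 genes. Its shade library had 3.35 times the RPKM of its sun library for Solyc09g007900 (1681 RPKM in shade and 501 RPKM in sun), 3.11 times for Solyc05g056170 (437 RPKM in shade and 140.2 RPKM in sun) and 2.48 times for Solyc10g086180 (709 RPKM in shade and 286 RPKM in sun). For Solyc09g007890 the factor was 2.59 in stem (247 RPKM in shade and 95.5 RPKM in sun) and 3.20 in inflorescence (268 RPKM in shade and 83.7 RPKM in sun). Each of these is 1 library against 1, with no replicate check. In S. pennellii stems the same genes were lower in shade: 0.788 times the sun value for Solyc09g007900, 0.926 for Solyc05g056170, 0.640 for Solyc10g086180 and 0.842 for Solyc09g007890.

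In S. pennellii the numbers of tissues with a higher value in shade were 3 of 6 for Solyc09g007900 and Solyc09g007890, 4 of 6 for Solyc05g056170 and Solyc03g036470, and 2 of 6 for Solyc10g086180. The log2 differences there lay between -0.13 and 0.20, with adjusted p-values of 0.9 to 1. Inflorescence was the tissue in which the chromosome 9 genes of S. pennellii were lowest in shade relative to sun, at 188 RPKM in shade and 390.4 RPKM in sun for Solyc09g007900 and 50.9 RPKM in shade and 106 RPKM in sun for Solyc09g007890. Seedlings went the other way, at 579 RPKM in shade and 317 RPKM in sun for Solyc09g007900 and 186 RPKM in shade and 73.7 RPKM in sun for Solyc09g007890. The difference in light response between S. pennellii and S. lycopersicum was -0.67 ± 0.34 for Solyc09g007900, adjusted p = 0.69.

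Across the 24 factorial libraries the log2(RPKM + 1) values of the chromosome 9 genes followed each other closely (Pearson r = 0.976), as a description over libraries that share species and tissue. Solyc05g056170 was next to them (r = 0.817 with Solyc09g007890 and 0.787 with Solyc09g007900), Solyc10g086180 had r of 0.612 to 0.756 with these 3, and Solyc03g036470 had r between -0.355 and 0.0328. Across the 28 seedling libraries, which share tissue and light and span the species and run blocks, the chromosome 9 genes had r = 0.431. There the highest r within the family was that of Solyc05g056170 with Solyc10g086180 (0.855), and the lowest was that of Solyc03g036470 with Solyc10g086180 (-0.778).

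Outside the family, the gene models whose factorial profile was most like that of Solyc09g007900 were Solyc08g079630.2.1 (r = 0.911) and Solyc11g006520.1.1 (r = 0.893), both below the r of its chromosome 9 neighbour. Those most like Solyc03g036470 in the 28 seedling libraries were Solyc04g025560.2.1 (r = 0.953) and Solyc07g023990.1.1 (r = 0.952). The sources used here give these IDs no gene name.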

How the data were processed

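Libraries were prepared using an mRNA kit of Illumina, per the labels' protocols. Per the submitters' processing notes, the tools were CASAVA 1.4 and BWA 0.5.7. For the reference sequence, the way reads were counted and what was done with reads of near-identical copies, details were not given in the sources used here. The authors deposited one table of RPKM values, and all 52 value columns were used. With a tolerance of 0.02 reads, 100% of values above 0 came out as whole reads, which gave library totals and an alternative count-based fit.

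Tests used limma 3.58.1 in R 4.3.3 (trended prior, robust estimation) on log2(RPKM + 1), with Benjamini-Hochberg adjustment over all genes tested. Log2 differences on this scale understate changes of low genes. Seedling fits took 19536 genes that reached 1 RPKM in 7 or more of 28 libraries, with 4 species means and 24 residual degrees of freedom. Factorial fits took 22512 genes that reached 1 RPKM in 2 or more of 24 libraries, with a mean for each combination of species and tissue and 1 light term in each species, leaving 10 residual degrees of freedom. Ratios of the chromosome 9 genes were tested in scipy 1.17.1. All 9 listed genes are named. The family members and lists were chosen with earlier results of these data known. No other phenylpropanoid enzyme was listed, as no source pairs these IDs with names. Alternatives were another pseudocount, no filter, median-ratio and quantile scaling, voom on recovered reads, run blocks and leaving out each library.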

Additional observations from a re-analysis of the deposited data

Results flagged for a closer look

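In S. habrochaites seedlings, the library of replicate 19 had 513 RPKM of Solyc09g007900, and the next of the 7 libraries had 404 RPKM, a gap wide enough to set the highest library apart from its group. Of 20 groups of 7 libraries examined, this was the 1 so marked, and chance marks about 1 in 20. That library belongs to the run block of 2 S. habrochaites libraries, whose other member had 360.1 RPKM. The part of the run block in this value was not tested.

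The tissue profile of Solyc05g056170 differed between S. pennellii and S. lycopersicum in limma's interaction test, with an adjusted p of 0.035. So did the profiles of 8.46% of all genes tested. The result was lost when any of several single libraries was left out, as given above. In stem the species differed by -2.35 in log2, and in inflorescence by -0.01.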

How the results depend on the processing

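The number of genes called between species in the seedling experiment was 1, against 2 under quantile normalization and 2 within run block 2 (Solyc09g007900 added, lower in S. habrochaites), and 1 to 2 with a library left out (Solyc10g086180 added). In the factorial, 3 genes were called between species and 3 to 4 with a library left out. Root maxima numbered 3, against 2 under median-ratio scaling, and 2 to 3 with a library left out. The species-by-tissue test passed for 1 gene, for 2 with limma voom on recovered reads, and for 0 to 2 with a library left out. None of the 5 genes was called between shade and sun under any alternative run. Over all genes, S. pennellii and S. lycopersicum differed over tissues in 2384, against 3993 with voom and 3947 with a pseudocount of 0.1, and their profiles differed in 1905, against 1139 with that pseudocount. Calls for light in S. pennellii numbered 2, against 0 without a filter or under median-ratio scaling, 4 with voom or that pseudocount and 7 under quantile normalization, and on average over species 0, against 2 with voom. The share of Solyc09g007900 in recovered reads was 60% in S. habrochaites, against 54.1% in RPKM, and 68.7% in S. lycopersicum seedlings, against 67.3%. Reads weight a gene by its length, which RPKM does not; the causes of the other shifts were not tested.

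With a library left out, the share of Solyc09g007900 was 70.9 to 72.5% in S. pennellii seedlings, 53.2 to 55% in S. habrochaites, 58.7 to 60.3% in S. pimpinellifolium, 66.9 to 67.5% in S. lycopersicum, 53.3 to 56% in S. pennellii of the factorial and 63.4 to 65.9% in S. lycopersicum. The log2 ratio of the chromosome 9 genes, whose measure and alternatives were chosen after seeing the data, stayed within 0.830 to 0.880 for S. habrochaites over S. lycopersicum, and was 0.10 within block 1 and -0.17 within block 2 for S. pennellii over S. lycopersicum, 0.18 and -0.14 for S. pennellii over S. pimpinellifolium, and -1.06 within block 2 for S. pennellii over S. habrochaites. For single genes no called difference changed sign. Of the contrasts and settings with a library left out, 4218 kept the same label, called or not, 69 lost a call and 53 gained one. Since the 4218 include differences not called in either fit, they do not give the share of calls that held. No paired analysis was possible because, by replicate number, no seedling species share a number and the factorial has 1 library per combination. Shade and sun libraries of 1 species and tissue are set against each other within that tissue by the model itself.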
